A study of Mus musculus with 12 samples.

Results

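The comparison set the 4 arrays with tpa in their titles against the 4 arrays whose titles name only a genotype and a day, which makes 8 of the 12 arrays of the study. Members were chosen by title alone, and each tpa array was paired with the array of the same genotype and day. The tpa arrays are Eng+/- 50 d, wt 50 d, Eng+/- 90 d and wt 90 d, and the arrays with no named treatment are Eng+/- 50 d, wt 50 d, Eng+/- 90 d and wt 90 d, with 1 array in each group. Eng+/- stands for the titles' "end +/-", read as a heterozygous change of Eng through the series title. Eng encodes endoglin, a co-receptor for Tgf-β and Bmp ligands, and the title of the series concerns its role in hair follicle cycling. What tpa stands for, what the days count from, the strain, the way Eng was altered and whether RNA was pooled over animals are not given in the sources used here. The remaining 4 arrays carry clp in their titles and entered the fit to estimate the spread and the effect of genotype. Where 1 array is left out, that genotype effect can enter the differences. The clp arrays also counted in the choice of probes described below.

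Each array was a 2-colour Agilent mouse array with the sample in Cy5 and, per the labels, a pool of all conditions in Cy3, in 1 dye orientation throughout. A level below is the log2 of Cy5 over Cy3 on 1 array, and a difference is the tpa level minus the level with no named treatment. The 4 tpa arrays lay on 1 slide and the 4 with no named treatment on another, so the treatment cannot be told apart from the slide. By their labels the samples are E14 embryonic stem cells, and "pool" stands in the titles of wt 50 d and wt 90 d with no named treatment. The series text has Cy3 on wt RNA and swapped dyes, against the labels of the single arrays. Of 54 measured markers of skin cell types, 51 were above background on all 8 arrays, among them keratinocyte, hair shaft, inner root sheath, melanocyte, fibroblast and mast cell markers. Of 5 embryonic stem cell markers, Pou5f1 and Zfp42, which mark the undifferentiated state, were above background on 0 of the 8 arrays, and Nanog and Dppa5a were above it on all 8. Eng itself stood at -0.49 (Eng+/- 50 d), -1.13 (wt 50 d), -0.38 (Eng+/- 90 d) and 0.79 (wt 90 d) on the tpa arrays, against -1.43, -0.24, -0.86 and -0.58 with no named treatment in the same order. The array labelled Eng+/- had less Eng than its wt partner in 3 of 4 cases and more at tpa 50 d, so genotypes are given as labelled. Between tpa and no named treatment Eng differed by 0.47 ± 0.32 (log2, SE) with an adjusted p of 0.364 (limma), and the groups overlapped.

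Hair follicles pass through growth (anagen), regression (catagen) and rest (telogen). In anagen, matrix cells under the control of Wnt signals, Lef1 and factors such as Msx1, Dlx2 and Trps1 divide and become the inner root sheath, built on its own keratins and on trichohyalin, and the hair shaft, built on hair keratins cross-linked with keratin-associated proteins. Follicle melanocytes make pigment only in anagen, and the transcripts of these genes are scarce in resting skin. Bmp signals and their antagonist noggin take part in timing the cycle. Interferon-stimulated genes, chemokines and macrophage genes report on innate immune activity in the same tissue. In whole RNA, fewer cells of a type and less RNA per cell cannot be told apart.

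The promoters below belong to genes of 4 lists whose medians differed between tpa and no named treatment at 50 d, which was not tested. They are shown because they hold the letters that these lists held more often than all genes did. Each runs 5′ to 3′ from 250 bases before to 50 after the annotated start, from RefSeq on GRCm38.p6. In the first 3, capitals mark CTTTGAA, a form of the core read by Lef1 and the Tcf factors, on either strand. In the last 2, capitals mark 2 copies of GAAA with any 2 bases between them, the core of the interferon-stimulated response element, on either strand. The inner root sheath gene Tchh lies at chr3:93442080-93442379 (plus strand), the hair shaft keratin gene Krt32 at chr11:100088220-100088519 (minus strand) and Krtap11-1, which encodes a keratin-associated protein, at chr16:89571134-89571433 (minus strand). The chemokine gene Cxcl10 lies at chr5:92348840-92349139 (minus strand) and Igtp, which encodes an interferon-induced GTPase, at chr11:58199306-58199605 (plus strand).
Tchh: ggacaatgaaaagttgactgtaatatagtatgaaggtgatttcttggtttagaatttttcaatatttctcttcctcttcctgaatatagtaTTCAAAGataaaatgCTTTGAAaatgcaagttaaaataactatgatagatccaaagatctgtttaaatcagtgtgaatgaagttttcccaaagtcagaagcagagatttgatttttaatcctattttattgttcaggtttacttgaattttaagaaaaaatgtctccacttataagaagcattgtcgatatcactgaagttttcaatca
Krt32: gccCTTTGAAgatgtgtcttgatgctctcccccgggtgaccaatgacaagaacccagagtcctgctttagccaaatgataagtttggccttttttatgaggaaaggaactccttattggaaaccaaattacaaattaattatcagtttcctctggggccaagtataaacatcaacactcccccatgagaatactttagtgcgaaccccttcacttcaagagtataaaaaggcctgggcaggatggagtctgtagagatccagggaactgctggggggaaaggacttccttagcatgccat
Krtap11-1: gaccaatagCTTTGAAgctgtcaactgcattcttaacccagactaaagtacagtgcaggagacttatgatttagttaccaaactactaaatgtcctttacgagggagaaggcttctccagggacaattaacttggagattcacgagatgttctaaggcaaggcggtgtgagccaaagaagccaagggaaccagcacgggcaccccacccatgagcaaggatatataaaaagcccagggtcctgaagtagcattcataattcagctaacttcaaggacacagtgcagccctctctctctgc
Cxcl10: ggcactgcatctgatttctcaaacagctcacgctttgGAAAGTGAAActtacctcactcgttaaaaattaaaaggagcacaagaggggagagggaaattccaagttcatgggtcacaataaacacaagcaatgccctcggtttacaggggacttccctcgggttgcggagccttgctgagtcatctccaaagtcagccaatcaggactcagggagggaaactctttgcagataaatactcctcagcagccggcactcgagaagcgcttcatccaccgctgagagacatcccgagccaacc
Igtp: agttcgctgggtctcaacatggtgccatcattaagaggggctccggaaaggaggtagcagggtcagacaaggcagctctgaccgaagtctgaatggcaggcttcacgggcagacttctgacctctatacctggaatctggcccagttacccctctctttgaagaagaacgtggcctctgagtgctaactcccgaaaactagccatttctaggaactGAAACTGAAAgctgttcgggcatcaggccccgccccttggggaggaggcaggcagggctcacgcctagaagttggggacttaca

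A match of CTTTGAA was found in 6 of 13 hair shaft promoters (46.2%), in 3 of 12 inner root sheath promoters (25%) and in 9 of 45 promoters of keratin-associated proteins (20%), against 4.77% of the 13552 tested genes that had a promoter in the table. No match was found in the 10 promoters of hair matrix regulators. The doubled GAAA was found in 11 of 18 promoters of interferon response genes (61.1%) and in 0 of 13 hair shaft promoters, against 3.85% of all. The AP-1 core TGANTCA, the site of Fos and Jun dimers, was found in 5 of 18 interferon response promoters (27.8%) and in 0 of 18 promoters of the AP-1 list, against 7.38% of all. The shares were not tested, and a match is a run of letters and no measurement of binding.

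The array labelled Eng+/- no named treatment 90 d stood apart from the other 3 of its group. Its log2 ratios correlated at 0.95 and 0.962 with the tpa arrays of 50 d (Eng+/- and wt) and at 0.872 and 0.775 with those of 90 d, across features that share the Cy3 pool. With the other arrays of no named treatment the correlation was 0.679 to 0.772. Its median Cy5 signal was also high. Median Cy5 signals were 419.5 (Eng+/- 50 d), 403 (wt 50 d), 557 (Eng+/- 90 d) and 481 (wt 90 d) on the tpa arrays, against 166.5, 213, 573 and 217 with no named treatment in the same order, and median Cy3 signals were 127 to 134.5, against 99 to 135.5. In brightness the array of Eng+/- 90 d therefore lay with the tpa arrays. Whether its label is right was not tested, and every Eng+/- value of 90 d and the 90 d comparison rest on that label. Tests below are given with and without this array. It was singled out after its values were seen, for lying near the tpa arrays. Leaving it out for that reason favours more calls and smaller p, so results without it are a description and no independent support. Without it 3 arrays with no named treatment remain over both days, but only 1 (wt) at 90 d.

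Hnrnpl and Rps19, named here after their values were seen, show how this array fell. Hnrnpl, which encodes a splicing factor, stood at -3.18, -2.89, -2.82 and -2.78 on the tpa arrays (Eng+/- 50 d, wt 50 d, Eng+/- 90 d, wt 90 d, the order used from here on), against 0.44, 0.19, -2.91 and 0.30 with no named treatment. Rps19, which encodes a protein of the small ribosomal subunit, stood at -0.18, -0.21, -0.16 and -0.18 with tpa, against -2.91, -2.19, -0.47 and -2.84 with no named treatment, with saturated spots on 3 tpa arrays and 1 other. In both genes the array of Eng+/- no named treatment 90 d lay near the tpa levels, and the remaining 3 of its group lay together, far from them. Without that array Hnrnpl differed by -3.18 ± 0.21 (adjusted p = 0.000896) and Rps19 by 2.58 ± 0.21 (adjusted p = 0.00126, limma). With it the differences were -2.42 ± 0.49 and 1.92 ± 0.44, with adjusted p of 0.0658 and 0.0749. Pdia4, Fxyd3 and Cox8b were chosen the same way and followed the same pattern. Since all of these genes were named after their values were seen, their shared pattern and small p are no test of it. Pdia4, which encodes a protein disulfide isomerase, differed by -3.20 ± 0.33 without the array, Fxyd3, a regulator of the sodium pump, by 2.89 ± 0.23, and Cox8b, a subunit of cytochrome c oxidase, by 2.90 ± 0.41 (adjusted p = 0.00183, 0.00126 and 0.00499).

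Over both days, limma called 34 of 25087 features (0.136%) at an adjusted p under 0.05, of which 7 were higher with tpa (0.0279%) and 27 lower (0.108%). The sign was shared by 4 of 4 pairs for all 34, and 15 of them, all lower, were at least 2-fold apart. With the pairs of genotype and day as a block, 0 features were called over both days (smallest adjusted p 0.132, 6035 at an unadjusted p under 0.05, limma on the 4 pair differences). At 50 d alone, at 90 d alone and for the difference between the days 0 features were called (0%), with smallest adjusted p of 0.0591, 0.267 and 0.433 and with 6643, 1783 and 2013 features at an unadjusted p under 0.05. Without the array of Eng+/- no named treatment 90 d, 5000 features were called over both days (19.9%), 2707 of them higher (10.8%) and 2293 lower (9.14%), and these included all 34. At 50 d 2830 were then called (11.3%), 1340 higher (5.34%) and 1490 lower (5.94%), and at 90 d 674 (2.69%), 507 higher (2.02%) and 167 lower (0.666%). The difference between the days then called 1 feature (0.00399%), a probe with no gene symbol. For 4619 of the 5000 features (92.4%) the array left out lay nearer the tpa mean than the mean of the other 3 arrays of its group, against 73.5% of all features. Brightness of the Cy5 channel moved with both the treatment and this array, and its part in these counts was not tested. Between the bright (wt) and the dim (Eng+/-) arrays of clp, the median difference was 0.0467 for the features called higher, 0.0868 for those called lower and 0.0462 for all features. On the clp arrays brightness went with genotype, so these medians cannot tell brightness from genotype. Leaving out the array of Eng+/- no named treatment 50 d gave 335 calls over both days, and leaving out any other single array gave 0 to 18.

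The 50 d differences do not use the 90 d arrays, and the fitted values at 50 d were the same with and without the Eng+/- one. What changed was the spread. Leaving out the wt array of no named treatment 90 d in its place gave 2831 calls at 50 d, since either step removes the disagreement of that pair of arrays from the residuals.

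Among genes with a symbol, 15 were called lower over both days. Lrrc57, a gene for a leucine-rich repeat protein, stood at -2.77, -1.71, -3.15 and -2.99 with tpa, against -0.55, -0.43, -1.18 and -1.06 with no named treatment. The groups did not overlap, and the difference was -1.85 ± 0.20 (adjusted p = 0.0327), or -1.80 without the array that stood apart. Btg1b, which is related to the anti-proliferative gene Btg1, had the smallest p, with -1.32, -1.17, -1.26 and -1.08 with tpa, against 0.09, 0.07, -0.40 and -0.01 with no named treatment. Its difference was -1.15 ± 0.09 (adjusted p = 0.00644, or 0.00128 without the array) and the groups did not overlap. Nphp4, which encodes a protein of the ciliary transition zone, stood at -2.54, -2.39, -2.09 and -1.78 with tpa, against -0.54, -0.02, -1.28 and -0.27, and differed by -1.67 ± 0.16 (adjusted p = 0.0198, or 0.00128 without the array). St8sia1, the synthase of the ganglioside GD3, stood at -1.47, -1.22, -1.41 and -1.47 with tpa, against -0.24, -0.15, -0.62 and 0.00, and differed by -1.14 ± 0.15 (adjusted p = 0.0331, or 0.00355 without the array). In each of these genes all 4 tpa arrays lay below all 4 others, as was true of 1629 features (6.49%), while 1176 (4.69%) had all 4 tpa arrays above. The other genes called lower were Olfr122, an olfactory receptor gene (-1.75), Mdk, which encodes the growth factor midkine (-1.48), Atxn7l2 (-1.36), Zfp790 (-1.36), Lrrtm1 (-1.05), Eqtn (-0.97), Cpa5, a carboxypeptidase gene (-0.83), Mcpt9, a mast cell protease gene, 2310002D06Rik (-0.68), Dtnb (-0.67) and Cibar2 (-0.66), all also called without the array. Mcpt9 was not well above background on any of the 4 arrays with no named treatment and was above it on 2 of the 4 tpa arrays, so no difference is given for it. 2310002D06Rik and Cibar2 were each well above background on 1 of the 4 arrays with no named treatment. Their differences rest partly on signals near background. Other probes of Mdk, Atxn7l2, Zfp790, Eqtn and Dtnb did not follow, with differences of 0.30, 0.02, 0.52, 0.13 and 0.06, while that of Nphp4 did (-0.86).

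The features called lower over both days differed in the Cy3 channel as well. All 27 had a higher Cy3 signal on the tpa arrays, and in 15 the Cy3 difference was itself called, against 5.15% of all features. Cy5 alone was not lower in 19 of the 27, and 0 were called lower on Cy5 alone, against 197 of all 25087 features. The median difference of the 27 was 0.09 in Cy5 and 0.38 in Cy3 (log2). The Cy3 signal of Lrrc57 was 11.73, 10.04, 12.36 and 11.89 (log2 intensity) on the tpa arrays, against 9.12, 9.17, 9.28 and 9.58, while its Cy5 signal was 11.59, 10.88, 11.60 and 11.40, against 11.08, 10.94, 10.57 and 11.09. The Cy3 channel of this gene thus differed more between the slides than Cy5 did. St8sia1 differed by -0.90 in Cy5 (adjusted p = 0.0583) and 0.22 in Cy3, whereas Olfr122, also called lower by its ratio, was higher in Cy5 by 0.91 (adjusted p = 0.0177) and in Cy3 by 1.35. Per the labels the Cy3 pool is the same on all arrays, so the Cy3 values describe the slides and not the samples, and the part of the slide in these calls was not tested.

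**Figure D1:**
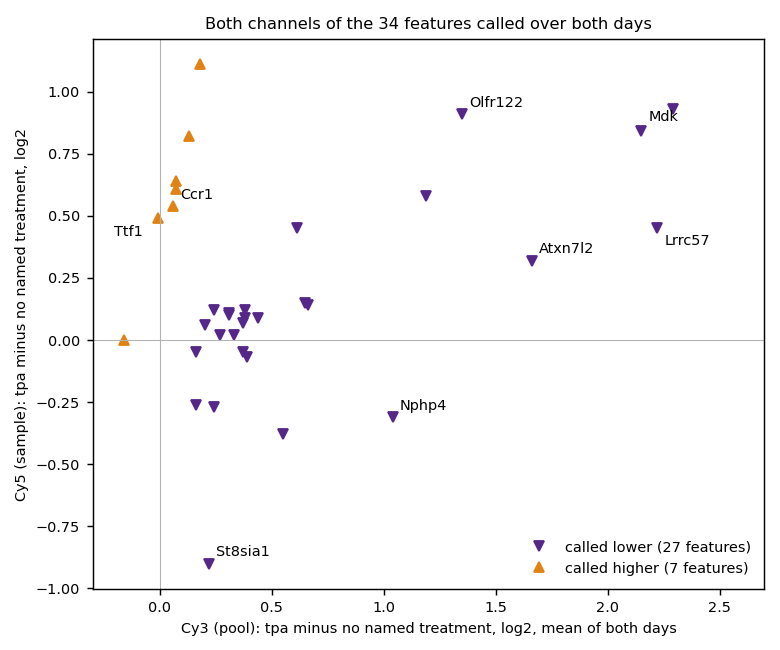
Difference in Cy5 (sample, vertical) against the difference in Cy3 (pool, horizontal), tpa minus no named treatment, in log2 over both days, with 1 point per feature called over both days. The 27 features called lower (purple) all lie right of 0 in Cy3 and 19 of them do not lie below 0 in Cy5, while 6 of the 7 called higher (orange) lie well above 0 in Cy5 and near 0 in Cy3.

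The features called higher differed in Cy5. Of the 7 features called higher, 6 were higher in Cy5 and all 6 were called on Cy5 alone, as were 260 of all 25087 features. Their median differences were 0.61 in Cy5 and 0.07 in Cy3. Cy5 is part of the ratio that made these calls, so the agreement is partly built in. The 3 with a symbol were Ccr1, Ttf1 and 2410141K09Rik. Ccr1, a receptor of inflammatory chemokines on monocytes and neutrophils, stood at 1.18, 1.02, 0.74 and 0.91 with tpa, against 0.21, 0.04, 0.71 and 0.35 with no named treatment. The groups did not overlap, though the tpa array of Eng+/- 90 d lay 0.03 above its partner, and the difference was 0.63 ± 0.09 (adjusted p = 0.0429, or 0.0037 without the array that stood apart). At 50 d Ccr1 was not well above background with no named treatment and was at least 2.23-fold higher with tpa (adjusted p = 0.0719, or 0.00787 without the array). "At least" here sets the brighter group against the lowest signal that counted as well above background. Where the brighter group is saturated on all its arrays, its saturated signal is set against the measured signal of the other group. Ttf1, the termination factor of RNA polymerase I, stood at 0.60, 0.69, 0.49 and 0.60 with tpa, against 0.16, -0.02, 0.06 and 0.10. It was not well above background on the 4 arrays with no named treatment and was at least 1.39-fold higher with tpa (adjusted p = 0.0331, or 0.00635 without the array). 2410141K09Rik differed by 0.68 ± 0.10 (adjusted p = 0.0434, or 0.00819 without the array).

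**Figure D2:**
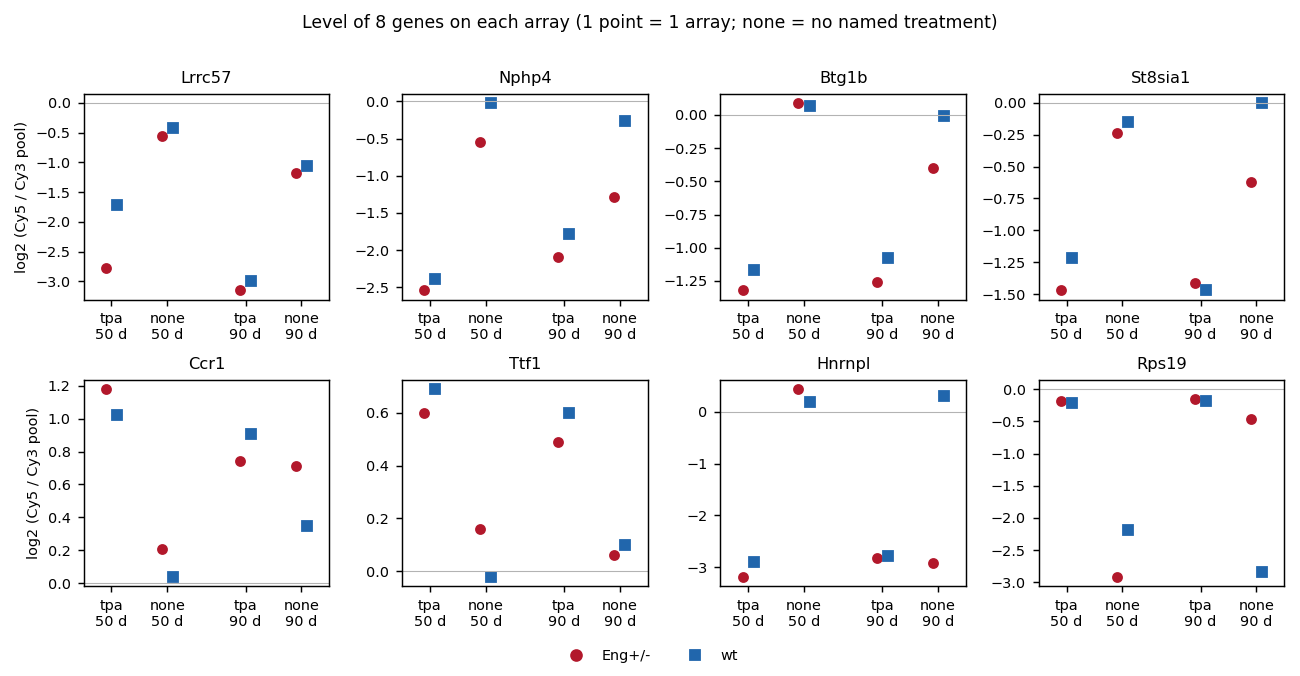
Log2 of Cy5 over Cy3 of 8 genes on each of the 8 arrays, with tpa left of no named treatment (none) at each day, Eng+/- as circles and wt as squares. Lrrc57, Nphp4, Btg1b and St8sia1 were lower and Ccr1 and Ttf1 higher on all 4 tpa arrays, while in Hnrnpl and Rps19 the array of Eng+/- no named treatment 90 d sits with or near the tpa arrays.

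By the 2-fold criterion of the series text, 17 features were apart the same way in 4 of 4 pairs, 5 higher (0.0199%) and 12 lower (0.0478%), and 6 of the lower ones were called. Knstrn, a gene of the mitotic spindle and kinetochore, stood at -3.15, -2.14, -1.49 and -1.74 with tpa, against -4.17, -3.85, -2.78 and -3.77, higher with tpa in 4 of 4 pairs although the groups overlapped. It differed by 1.52 ± 0.37 with an adjusted p of 0.0807, and by 1.94 ± 0.31 (adjusted p = 0.00654) without the array that stood apart. Gfra4, the receptor of persephin, and H1f5, a linker histone gene, differed by 1.39 and 1.93 (adjusted p = 0.105 and 0.098), and by 1.95 and 2.64 without the array (adjusted p = 0.00606 and 0.00696). Arl4d, a gene of a small GTPase, stood at -1.12, -0.20, -0.95 and -0.19 with tpa, against 1.63, 1.63, 0.13 and 1.47, and Lhb, which encodes a subunit of luteinizing hormone, differed by -1.90. Their adjusted p were 0.0658 and 0.0539, or 0.0126 and 0.00484 without the array. Without the array of Eng+/- no named treatment 90 d and its pair, 233 features were 2-fold higher (0.929%) and 243 lower (0.969%) in 3 of 3 pairs.

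At 50 d the genes of the growing follicle were lower with tpa in both genotypes. The median level of 19 hair shaft keratin and cuticle genes was -4.48 (Eng+/-) and -4.60 (wt) with tpa, against -1.64 and 0.0165 with no named treatment. The median of the 14 inner root sheath genes was -4.23 and -4.88 with tpa, against -0.438 and 0.0524, and that of the 50 keratin-associated proteins was -5.16 and -5.71, against -3.60 and -1.27. In none of the lists did a member pass over all 12 arrays, where 0 of 25087 features were called at 50 d. The median differences were -3.19 for hair shaft, -4.01 for inner root sheath and -3.05 for keratin-associated proteins, against -0.0189 for all features, and 19 of 19, 13 of 14 and 50 of 50 members were below 0. Without the array that stood apart, with the same differences, 17 of 19 hair shaft genes, 8 of 14 inner root sheath genes and 27 of 50 genes of keratin-associated proteins fell, against 5.94% of all features, and 0 rose.

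Single genes show the size of these differences. Krt27, an inner root sheath keratin gene, stood at -4.86 and -6.34 on the tpa arrays of 50 d, against -0.20 and 1.01, and Krt25, another, at -6.36 and -6.98, against -2.07 and -1.28. They differed by -6.01 ± 0.59 and -5.00 ± 0.43, with adjusted p of 0.105 and 0.102 over all 12 arrays and 0.00627 for both without the array. Tchh, the gene of trichohyalin whose promoter is printed above, was saturated on both arrays with no named treatment and was at least 24.47-fold lower with tpa (adjusted p = 0.00981 without the array and 0.0868 with it). Krtap11-1 stood at -5.28 and -5.99, against -1.55 and 0.35, and Krt32, a hair shaft keratin gene, at -2.95 and -2.97, against -0.88 and 0.32. Their adjusted p were 0.00787 and 0.0211 without the array, and 0.11 and 0.0865 with it. Krt36, another hair shaft keratin gene, differed by -2.52 ± 0.43 (adjusted p = 0.0175 without the array and 0.0928 with it). Dsg4, the desmosomal cadherin of the hair shaft, was not well above background on either tpa array and was above it on only 1 of the others. No fold is therefore given for it (adjusted p = 0.0241 without the array and 0.0719 with it). In all of these genes both tpa arrays lay below both others, and the share of all features with such a split was not counted. Gata3, a transcription factor of the inner root sheath, was the 1 member of its list above 0 at 50 d. It stood at -0.31 on both tpa arrays of 50 d, against -1.08 and -0.73. Its difference of 0.59 at 50 d did not pass either way (adjusted p = 0.409 and 0.0965). Over both days it differed by 0.72 (adjusted p = 0.191), and without the array it was called higher, with 1.17 (adjusted p = 0.00503, limma).

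Pigment genes and matrix regulators moved with them. The 15 melanocyte genes had medians of -1.63 and -1.73 with tpa at 50 d, against -0.343 and -0.144. Without the array that stood apart 9 of 15 fell, against 5.94% of all features. Mc1r, the melanocortin receptor of melanocytes, stood at -1.93 and -1.95 with tpa, against 0.49 and 0.11, and differed by -2.24 ± 0.29 (adjusted p = 0.0102, or 0.0938 with the array). Pmel and Mlana, genes of melanosome proteins, differed by -1.56 and -1.39 (adjusted p = 0.023 and 0.0421 without the array and 0.0925 and 0.102 with it). Trpm1, a channel gene of melanocytes, was the 1 melanocyte gene above 0, with 0.52 (adjusted p = 0.39, or 0.27 without the array). The 15 hair matrix regulators had medians of -1.43 and -1.09 with tpa, against 0.0574 and -0.0222, and 9 of 15 fell without the array, against the same 5.94%. Dlx2, a homeobox factor of the matrix, stood at -2.46 and -2.29 with tpa, against 0.75 and 0.17, and differed by -2.83 ± 0.50 (adjusted p = 0.0187, or 0.0863 with the array). Trps1, Lef1, Vdr, which encodes the vitamin D receptor, and Msx1 differed by -1.50, -0.98, -0.96 and -0.73 (adjusted p = 0.0312, 0.0472, 0.0251 and 0.037 without the array, and 0.075 to 0.086 with it).

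**Figure D3:**
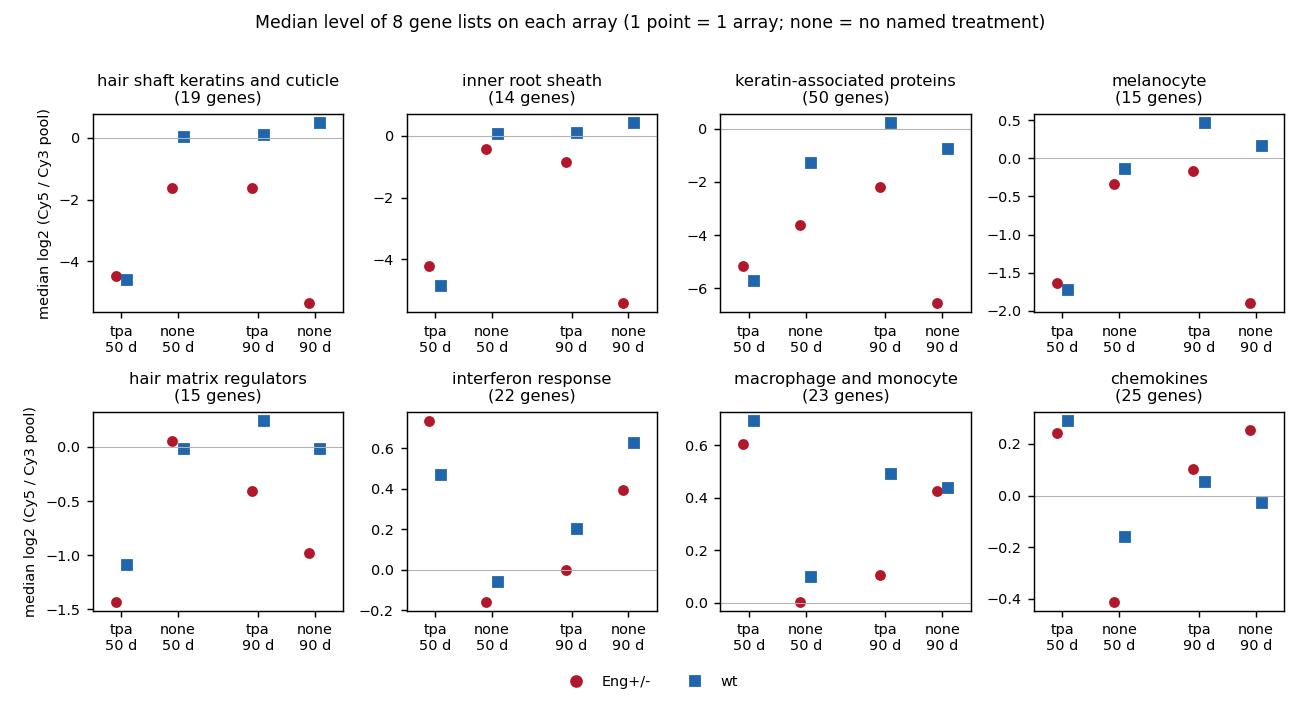
Median log2 of Cy5 over Cy3 of 8 gene lists on each of the 8 arrays, with tpa left of no named treatment (none) at each day, Eng+/- as circles and wt as squares. At 50 d both tpa arrays lie below both others in the 5 follicle lists and above them in the 3 immune lists, and the array of Eng+/- no named treatment 90 d has the lowest hair shaft level of the 8, -5.36.

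Genes of the interferon response, macrophage and chemokine lists were mostly higher at 50 d, with 0 passing over all 12 arrays, whereas the neutrophil list had a median of -0.0678 and the list of interleukin-1 family and inflammatory cytokines one of -0.0506. The 22 interferon response genes had median levels of 0.734 and 0.465 with tpa, against -0.158 and -0.0637, and 21 of 22 were above 0 with a median difference of 0.698. Without the array that stood apart 7 of 22 rose and 0 fell, against 5.34% and 5.94% of all features. Ifi44, an interferon-induced gene, stood at 1.71 and 0.94 with tpa, against -0.21 and -0.07, and differed by 1.46 ± 0.24 (adjusted p = 0.0151, or 0.0719 with the array). Ifit2, which encodes a translation inhibitor induced by interferon, differed by 0.97 (adjusted p = 0.0412 and 0.0956). Igtp and Cxcl10, whose promoters are printed above, differed by 0.64 and 0.75 and did not pass in either fit (adjusted p = 0.0699 and 0.0875 without the array). In all 4 genes both tpa arrays of 50 d lay above both others. The share of all features with such a split at 50 d was not counted.

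The 23 macrophage and monocyte genes had median levels of 0.606 and 0.693 with tpa at 50 d, against 0.00492 and 0.0989, and 21 of 23 were above 0. Without the array 6 of 23 rose and 0 fell, against 5.34% and 5.94% of all features at 50 d. Tyrobp, the signalling adaptor of myeloid receptors, stood at 1.32 and 1.14, against -0.73 and -0.23, and Mrc1, the mannose receptor of tissue macrophages, at 1.72 and 1.71, against 0.16 and 0.40. They differed by 1.71 ± 0.32 and 1.44 ± 0.26 (adjusted p = 0.0197 and 0.0195, or 0.075 and 0.0719 with the array). Lyz2, the lysozyme of myeloid cells, differed by 1.56 and Ccr2, the receptor of monocyte chemokines, by 0.96 (adjusted p = 0.02 and 0.04 without the array and 0.0934 and 0.0862 with it). Of the 25 chemokines, 21 were above 0 at 50 d, and 8 rose and 1 fell without the array, against the same shares. Ccl7, a monocyte chemokine, stood at 2.10 and 1.20 with tpa, against 0.18 and 0.06, and differed by 1.53 ± 0.25 (adjusted p = 0.016, or 0.0719 with the array). Ccl8, another, stood at 0.53 and 0.68 at 50 d and at 0.65 and 0.74 at 90 d with tpa, against -1.47, -1.69, 0.14 and -1.18. It was saturated on all 4 tpa arrays and on 1 of the 4 others, so no fold is given (adjusted p over both days = 0.0704, or 0.00656 without the array). Over both days without the array 10 of the 25 chemokines rose and 1 fell, and Ccl22 and Cxcl1, which attract T cells and neutrophils, differed by 0.46 ± 0.07 and 0.66 ± 0.13 (adjusted p = 0.0048 and 0.0122, or 0.0749 and 0.0726 with the array). With no named treatment Ccl22 was well above background on 1 of 4 arrays and Cxcl1 on 2. Their differences rest partly on signals near background. Of 10 mast cell genes 4 rose and 0 fell over both days without the array, against 10.8% and 9.14% of all features, among them Mcpt4, a mast cell chymase, with 1.24 ± 0.27, and Ms4a2, a chain of the IgE receptor, with 0.32 ± 0.08 (adjusted p = 0.0176 and 0.0328, or 0.157 and 0.0749 with the array). Ms4a2 was well above background on 2 of the 4 arrays with no named treatment, so the same limit holds for it.

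At 90 d the comparison rested on 2 unlike pairs. At least 2-fold higher and lower were 299 and 108 features in the Eng+/- pair, and 1203 and 620 in the wt pair. At 50 d the counts were 1023 and 1285 in the Eng+/- pair and 545 and 1435 in the wt pair. Across features the Eng+/- 90 d pair correlated at -0.29, -0.45 and 0.17 with the pairs of Eng+/- 50 d, wt 50 d and wt 90 d, while the other 3 pairs correlated with each other at 0.43 to 0.70. Hair shaft genes differed by a median of 3.34 in the Eng+/- pair of 90 d and by -0.275 in the wt pair, and inner root sheath genes by 4.18 and -0.688. The hair shaft medians of the tpa arrays were -1.62 and 0.102, against -5.36 and 0.487 with no named treatment, and those of the 4 clp arrays were -1.08 to 1.08. The high value of the Eng+/- pair came with the low level of the array that stood apart. Both tpa arrays of 90 d lay within the range of the 7 arrays outside tpa other than that one (-1.64 to 1.08). Without that array, against 1 array with no named treatment, the 90 d medians were -0.562 for hair shaft and -0.779 for inner root sheath. Gata3 of the inner root sheath list went the other way there, with 1.74.

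In the list of basal and stress keratins 10 of 15 members were above 0 at 90 d, and 0 passed over all 12 arrays. The median difference was 0.837, against 0.0106 for all features. Krt6b, a keratin gene induced in injured epidermis, stood at 0.31 and 1.41 with tpa at 90 d, against -1.31 and -2.05, and Krt16, its partner, at 0.14 and 0.78, against -0.41 and -0.65. S100a8, an alarmin of neutrophils and stressed keratinocytes, stood at -0.56 and -0.69, against -2.26 and -3.87. In all 3 genes both tpa arrays of 90 d lay above both others, and none passed at 90 d (differences of 2.54, 0.99 and 2.44, adjusted p = 0.689, 0.689 and 0.624). How many of all features had such a split at 90 d was not counted. Without the array, against 1 array with no named treatment, the differences were 2.84, 1.18 and 3.07. Stfa3, a stefin gene of neutrophils and epidermis, was saturated on both tpa arrays of 90 d and on 1 of the 2 others, so no fold is given. Its pairs of 90 d differed by 0.45 (Eng+/-) and 3.11 (wt), partly from saturated spots, and it did not pass (adjusted p = 0.689, limma). The 13 neutrophil genes had a median difference of 0.318 at 90 d, or 0.876 without the array. Among features of 90 d alone (at least 2-fold in both pairs of 90 d and under 1.5-fold in both of 50 d), 5 were higher and 1 lower. They include Ptgds, the synthase of prostaglandin D2, which stood at -1.48 and -0.60 with tpa at 90 d, against -2.49 and -1.78, and at -2.62 and -2.27 at 50 d, against -2.47 and -1.82. Its difference of 1.10 ± 0.23 at 90 d did not pass (adjusted p = 0.624, limma) and was 1.13 without the array. The smallest p at 90 d belonged to Btg1b, Lrrc57, 2310002D06Rik and Il12a, a subunit of interleukin 12 (difference 0.58 ± 0.09), all with an adjusted p of 0.439. Btg1b, 2310002D06Rik and Il12a were each well above background on 1 of the 2 arrays of 90 d with no named treatment. Without the array, against 1 array with no named treatment, Btg1b, Il12a, Lrrc57 and 2310002D06Rik differed by -1.10, 0.67, -1.85 and -0.63 at 90 d. By the same rule 31 features were higher and 51 lower at 50 d alone.

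A further 35 features were at least 2-fold lower with tpa in both pairs of 50 d and 2-fold higher in both pairs of 90 d. No feature was called for the difference between the days, and the values below are a description. The genes named next were chosen by their small p for that difference and lie outside the 35, since 1 or more of their pairs were under 2-fold. Krtap13-1, a keratin-associated protein gene, stood at -5.64 and -5.67 (50 d) and -2.88 and -0.13 (90 d) with tpa, against -4.71, -2.37, -6.29 and -2.04 with no named treatment, so that the sign turned in both genotypes. Gsdmc3, a gasdermin gene, stood at -1.38, -1.11, 0.42 and 0.03 with tpa, against 1.31, 0.65, -0.87 and -0.65, and Gsdmc at -1.09, -1.01, 0.11 and -0.16, against 0.84, 0.45, -0.52 and -0.38. Their differences at 90 d minus those at 50 d were 3.21 ± 0.54 and 2.12 ± 0.35 (adjusted p = 0.433 each, limma), and 3.13 and 2.09 without the array. 2610528A11Rik (1.95) and Crp, the C-reactive protein gene (-0.91), had the other smallest p, also with 0.433. Interferon response genes turned the other way, with medians of 0.909 and 0.553 in the Eng+/- and wt pairs of 50 d and of -0.307 and -0.594 in those of 90 d. Their levels with no named treatment were higher at 90 d (0.391 and 0.625) than at 50 d (-0.158 and -0.0637). Across the 25087 features the differences at 90 d and at 50 d correlated at 0.19.

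**Figure D4:**
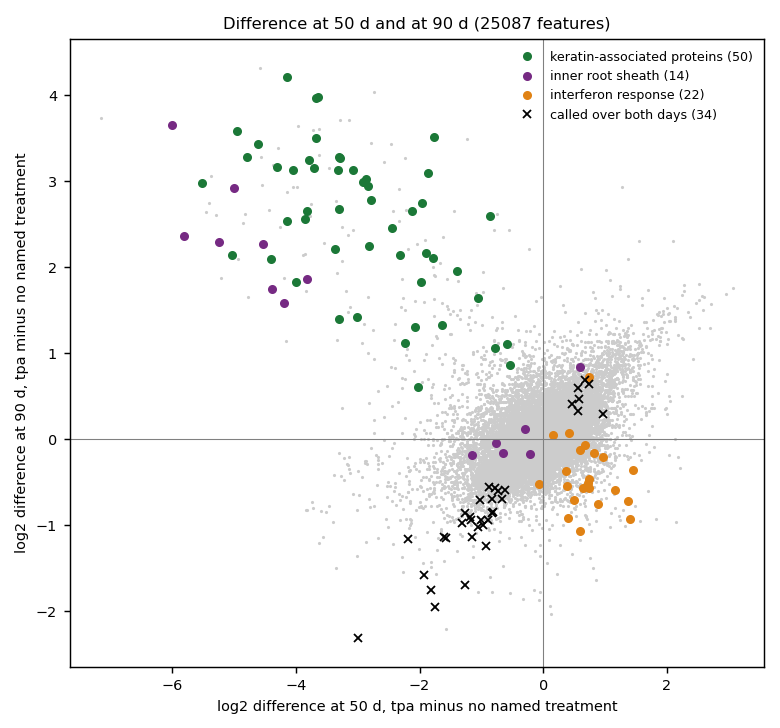
Log2 difference at 90 d (vertical) against 50 d (horizontal), tpa minus no named treatment, with 1 point per feature. The 34 features called over both days (crosses) lie in the lower left and upper right, keratin-associated proteins (green) and most of the inner root sheath genes (purple) in the upper left, and interferon response genes (orange) mostly in the lower right.

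**Figure D5:**
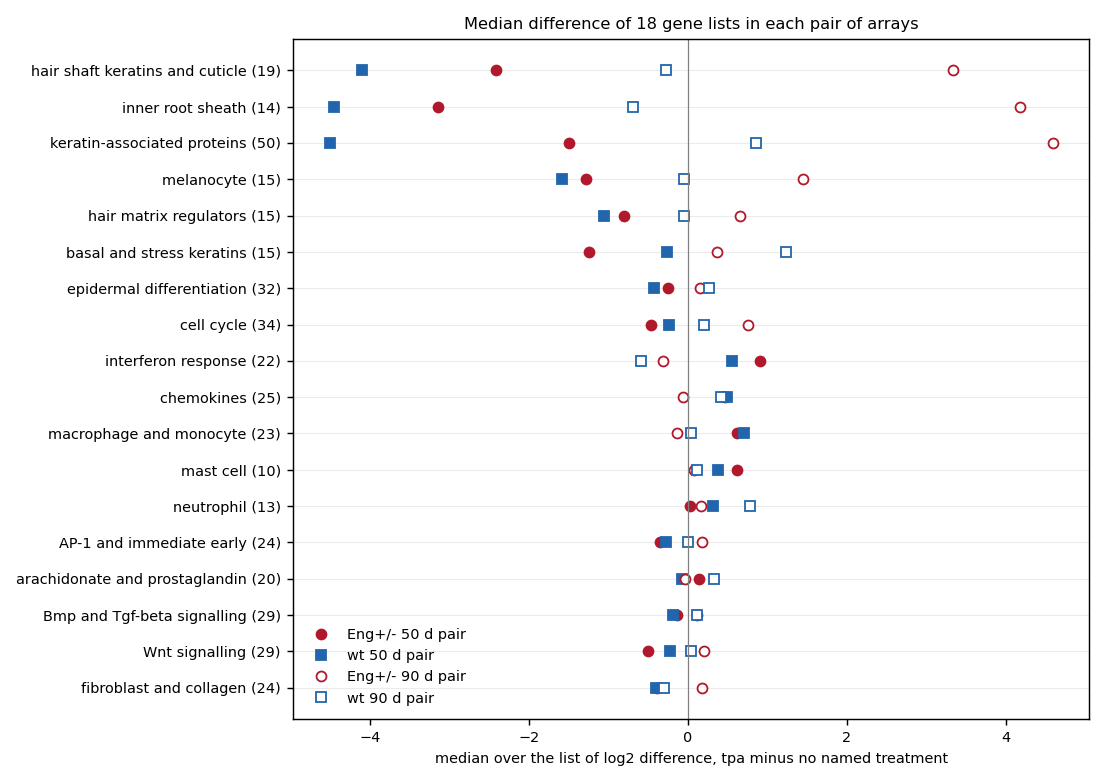
Median difference of 18 gene lists in each pair of arrays (number of genes in brackets), tpa minus no named treatment in log2. Filled symbols are the pairs of 50 d and open symbols those of 90 d, and in the hair shaft and inner root sheath lists the wt pair of 90 d lies near 0 while the Eng+/- pair of 90 d lies at 3.34 and 4.18.

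Signalling genes showed smaller differences. Among 29 Bmp and Tgf-β genes the medians were -0.147 at 50 d and 0.106 at 90 d, 0 passed over all 12 arrays, and over both days without the array 4 rose and 4 fell of 29, against 10.8% and 9.14% of all features. Nog, which encodes the Bmp antagonist noggin, stood at -3.07, -3.26, -3.36 and -1.42 with tpa, against -1.59, -0.30, -2.67 and -0.76, was lower in 4 of 4 pairs, and differed by -1.44 ± 0.31 (adjusted p = 0.0696, or 0.0167 without the array). On Cy5 alone the difference of Nog was 0.15. Acvr1, a Bmp type I receptor gene, stood at -1.92, -1.74, -1.45 and -1.45 with tpa, against -0.47, -0.52, -1.72 and -0.56, with overlap, and differed by -1.10 ± 0.15 without the array (adjusted p = 0.00384, or 0.0859 with it). Tgfbr2, the type II Tgf-β receptor gene, differed by 1.12 ± 0.22 at 50 d and by 0.37 at 90 d without the array. Its adjusted p at 50 d was 0.0212, and with the array it was 0.0728 at 50 d and 0.888 at 90 d (limma). Of 29 Wnt genes, 6 fell and 0 rose at 50 d without the array, against 5.94% and 5.34% of all features, and Lef1 stood at -1.64, -1.45, -0.42 and 0.52 with tpa, against -0.83, -0.30, -1.58 and -0.48. Its groups overlapped, with tpa lower in both pairs of 50 d and higher in both of 90 d.

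Of 24 AP-1 and immediate early genes, 7 fell and 3 rose over both days without the array. Unless a day is named, counts of genes that rose or fell in this paragraph are over both days in that fit. They stand beside 9.14% lower and 10.8% higher among all features, which several of them are near. Jund, an AP-1 subunit gene, stood at -1.47, -1.08, -1.13 and -1.31 with tpa, against 0.96, 0.64, -1.19 and 1.04, and differed by -2.14 ± 0.22 (adjusted p = 0.00183, or 0.0759 with the array). Fos, another, stood at 0.99, 0.63, 1.31 and 1.90 with tpa, against 0.26, -0.01, 0.96 and 0.38, and differed by 0.96 ± 0.20 (adjusted p = 0.0166, or 0.0791 with the array). Jund was thus lower and Fos higher on most tpa arrays, and both groups overlapped. Ptgs2, the inducible cyclooxygenase, stood at 0.97, 0.93, 1.15 and 1.28 with tpa, against 0.11, 0.01, 0.92 and 0.05. It was well above background on all 4 tpa arrays but on only 1 of the 4 others, so its difference rests partly on signals near background. Its groups did not overlap, and it differed by 1.02 ± 0.11 (adjusted p = 0.00183, or 0.06 with the array). Ptger2, a prostaglandin E2 receptor gene, stood at 1.09, 1.27, 0.88 and 1.02 with tpa, against 0.29, 0.03, 0.88 and 0.35, and differed by 0.81 ± 0.10 (adjusted p = 0.00359, or 0.0596 with the array). Of the 20 arachidonate and prostaglandin genes 3 rose and 0 fell. Of 24 fibroblast and collagen genes 8 fell and 2 rose over both days without the array, and Ogn, which encodes the matrix proteoglycan osteoglycin, was among those that rose (0.89 ± 0.14, adjusted p = 0.00671, or 0.0853 with the array). Of 34 cell cycle genes 3 fell and 1 rose, of 32 epidermal differentiation genes 3 fell and 4 rose, and of 15 basal and stress keratin genes 3 fell and 1 rose. The other 18 lists held 303 members with median differences of -0.557 to 0.414 at 50 d and -0.169 to 0.163 at 90 d, and 0 members passed over all 12 arrays. Without the array 24 of the 303 fell and 12 rose at 50 d, against 5.94% and 5.34% of all features at 50 d. Over both days 32 fell and 27 rose.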

How the data were processed

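The deposited scanner files hold median foreground and background signals of both channels in scanner intensity, with flags. Processed signals are, per the file headers, the authors' dye-normalized intensity values, and the deposited value table holds their log10 ratio, which equalled the scanner files' log10 ratio (largest difference 0). Feature Extraction is given as 10.0 in the submitters' processing notes and as 10.7.3.1 in the file headers, where the array design is 026655 and the scanner an Agilent one.

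Median signals were processed with limma 3.58.1 in R 4.3.3 (data.table package, version 1.17.8, and Python 3.11.15 for promoters and figures): normexp with an offset of 50, loess within arrays, log2 of Cy5 over Cy3. Of 43020 spots that were not controls, averaged to 39429 probes, 975 probes were left out for an outlier flag. Probes needed a Cy5 signal flagged well above background on 2 or more of the 12 arrays (30498 probes), 27234 probes were named through RefSeq accessions before that filter, and the brightest probe stood for each gene, which left 25087 features, 17167 of them named. The design had meant to use mean signals, and the files hold medians.

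One model with genotype and the 6 conditions of treatment and day was fitted to all 12 arrays (5 residual and 4.17 prior degrees of freedom, eBayes with trend). With 1 array per group, the spread is what genotype and condition leave, which may be technical, under the assumption that single arrays have equal spread. P-values are two-sided, adjusted by the Benjamini-Hochberg method over all features, with a threshold of 0.05. The number of arrays limits the precision. The script was tested on simulated data.

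The members, the 36 gene lists and the tests were chosen with earlier results of these data known. Hnrnpl, Rps19, Pdia4, Fxyd3 and Cox8b were named after their values were seen. The other genes were named by rule: called genes with the same sign in 4 of 4 pairs, genes 2-fold apart in all pairs, the 4 smallest p where none passed, and in each list the 4 smallest p over both days and the 2 smallest for the difference between the days. Promoters come from RefSeq (GRCm38.p6) and were matched by symbol for 13552 of 17167 genes. No probe coordinates are given. Alternatives were median centring, the authors' processed signals, Cy5 alone, filters, no trend, the 8 arrays alone, leaving out each array and, added later, the pairs of genotype and day as a block (3 residual degrees of freedom over both days, 2 by day).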

Additional observations from a re-analysis of the deposited data

Results flagged for a closer look

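Several values had opposite signs on the 2 days, with both genotype pairs of 90 d on one side of 0 and both pairs of 50 d on the other. For single genes limma's difference between the days called 0 of 25087 features, with 2013 at an unadjusted p under 0.05, and for medians of lists the difference was not tested. The array that stood apart enters every Eng+/- value of 90 d.

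For lists, the value is the mean of the 2 pair medians of 90 d minus that of 50 d. It was 5.73 for keratin-associated proteins, 1.55 for basal and stress keratins, 0.546 for epidermal differentiation and 0.828 for the cell cycle. It was 0.407 for AP-1 and immediate early genes, 0.266 for Bmp and Tgf-β signalling and 0.484 for Wnt signalling. The wt pair of 90 d was close to 0 for AP-1 (0.00283) and Wnt genes (0.0348). Interferon response genes turned the other way, with -1.18. Hair shaft, inner root sheath, matrix and melanocyte lists are not among these, since their wt pair of 90 d lay below 0. Without the array that stood apart the 90 d median was 0.42 for keratin-associated proteins (2.66 with it), 1.18 for basal and stress keratins, 0.458 for epidermal differentiation and 0.225 for the cell cycle. It was -0.093 for AP-1, 0.106 for Bmp and Tgf-β, -0.0166 for Wnt and -0.743 for interferon response genes.

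Among single genes, the difference at 90 d minus that at 50 d was 2.21 for Dsg4, 3.69 for Krt82, a cuticle keratin gene, 4.70 for Krtap4-6, 1.84 for Krtap24-1 and 4.78 for Krtap13-1. It was 3.43 for Pmel, 2.84 for Mlana and 2.06 for Lef1. The epidermal genes Krt16 and Krt6b had 2.58 and 4.88, Ptgds had 1.39, and 2610528A11Rik, Gsdmc and Gsdmc3 had 1.95, 2.12 and 3.21. The genes higher with tpa at 50 d and lower at 90 d were Ifi44 (-1.83), Ifit2 (-1.18), Igtp (-1.20) and Crp (-0.91). In Krt6b the wt pair of 50 d was close to 0 (-0.06) and the Eng+/- pair carried the value of 50 d (-4.61).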

How the results depend on the processing

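The counts of called features depended on the processing. Over both days, at 50 d, at 90 d and for the difference between the days they were 34, 0, 0 and 0 as reported. Median centring in place of loess gave 993, 1608, 55 and 211, moved the median of all features to 0.331 over both days, 0.488 at 50 d and 0.155 at 90 d, and made 82.8% of the calls over both days higher, against 20.6%. The authors' processed signals gave 0, 11, 0 and 0, Cy5 alone gave 457, 353, 2 and 0, and requiring both channels above background on all 8 arrays gave 4 calls over both days. A fit without the intensity trend gave 4 and the 8 arrays alone gave 0, both with 0 elsewhere. Leaving out both Eng+/- 90 d arrays of the comparison, chosen after seeing the data, gave 2949, 2107, 10 and 2. Features 2-fold apart in all pairs numbered 17 as reported, 4 with median centring, 59 with processed signals, 87 on Cy5 alone and 476 without both Eng+/- 90 d arrays.

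Leaving out 1 array gave 0 to 5000 calls over both days, 0 to 2831 at 50 d, 0 to 674 at 90 d, 0 to 231 for the difference between the days and 17 to 476 features 2-fold apart in all pairs left. The count over both days was 0 without wt tpa 50 d, 2 without any of the 4 clp arrays, 4 without Eng+/- tpa 90 d or wt no named treatment 90 d, 11 without Eng+/- tpa 50 d or wt no named treatment 50 d, and 18 without wt tpa 90 d. At 50 d it was 70 without Eng+/- no named treatment 50 d and 0 to 13 without the others, apart from the 2830 and 2831 given above. The cause was not tested.

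On Cy5 alone the sign over both days turned for 2310002D06Rik (0.09), Atxn7l2 (0.32), Cpa5 (0.11), Eqtn (0.09), Lhb (0.12), Lrrc57 (0.45, and 0.67 at 90 d), Lrrtm1 (0.45), Mcpt9 (0.12), Mdk (0.84), Nog (0.15), Olfr122 (0.91) and Zfp790 (0.15). With median centring it turned for Ccl22 (-0.15), Ms4a2 (-0.19), Ttf1 (-0.13) and Vdr at 50 d (0.18), and without Eng+/- no named treatment 50 d for Trpm1 at 50 d (-0.01 to 1.04 over the arrays left out). Ttf1 and Ccr1 were called with loess and on Cy5 alone and missed the threshold with median centring (adjusted p = 0.756 and 0.29). With the pairs of genotype and day as a block, chosen after seeing the data, 0 features were called over both days and in the other 3 comparisons (smallest adjusted p 0.132 over both days), and 0 of the 34 calls were kept.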
